A study of Homo sapiens with 6 samples.

Results

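The receptors through which hematopoietic growth factors act were examined in OCI-AML5, a human cell line established from an acute myeloid leukemia. They were 9 genes chosen by name: CSF2RA, CSF2RB, IL3RA, KIT, FLT3, CSF1R, CSF3R, IL6R and IL6ST, out of 60609 genes listed for each library. All 9 symbols were found, and the Y-chromosome duplicates of CSF2RA and IL3RA were not counted as members. The study exposed OCI-AML5 cells to 1 μM S767 or to its solvent DMSO for 24 hours, in 3 libraries each, to learn how this compound acts on leukemic cells. Cells of both groups were grown in aMEM with 10% heat-inactivated fetal bovine serum and 10 ng/mL GM-CSF, so the ligand of the CSF2RA and CSF2RB receptor was present throughout and no library without it was measured. One cell line was used, and the labels number the libraries 1 to 3 in each group without saying what the numbers share. The values of libraries with equal numbers deviated together, so the libraries are given both as separate samples of a group and with the number as a block. P values measure the spread between these libraries, which may be technical.

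These receptors sit in the cell membrane and signal as pairs or larger complexes of chains. CSF2RA and IL3RA encode the α chains that bind GM-CSF and IL-3, and both pair with the common β chain encoded by CSF2RB, which carries JAK2 and starts STAT5 signaling. KIT, FLT3 and CSF1R encode class III receptor tyrosine kinases for stem cell factor, FLT3 ligand and M-CSF. CSF3R encodes the G-CSF receptor, which acts as a homodimer and drives granulocyte production. IL6R encodes the IL-6 binding chain and IL6ST encodes gp130, the chain that IL-6 shares with related cytokines for signaling. FLT3 and KIT mark immature and leukemic blasts, whereas CSF1R and CSF3R mark the monocytic and granulocytic lines.

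CSF2RA and IL3RA lie side by side in PAR1, the pseudoautosomal region that is the same on the X and Y chromosomes, which decides how they can be counted. In GENCODE 29 on GRCh38, CSF2RA spans chrX:1268800-1310381 and IL3RA spans chrX:1336616-1382689, both on the plus strand. All 19 CSF2RA transcripts and all 3 IL3RA transcripts have the same sequence in their Y copies. Promoter windows of 300 bases, from 250 before to 50 after the start site, were taken from RefSeq on GRCh38.p14, where 8 of the 9 genes had an entry. The windows of CSF2RA and IL3RA were the same on X and Y at 300 of 300 bases. They are shown with both windows of CSF3R, since CSF2RA and CSF3R were the receptors whose DMSO and S767 libraries did not overlap in counts scaled to library size. Capitals mark GAGGAA or its reverse complement TTCCTC, the core of sites that ETS factors such as SPI1 bind, and these 2 words cannot overlap. CSF2RA is chrX:1268564-1268863, IL3RA is chrX:1336535-1336834, and the CSF3R windows on the minus strand are chr1:36483265-36483564 and chr1:36482864-36483163, each written 5′ to 3′.
CSF2RA: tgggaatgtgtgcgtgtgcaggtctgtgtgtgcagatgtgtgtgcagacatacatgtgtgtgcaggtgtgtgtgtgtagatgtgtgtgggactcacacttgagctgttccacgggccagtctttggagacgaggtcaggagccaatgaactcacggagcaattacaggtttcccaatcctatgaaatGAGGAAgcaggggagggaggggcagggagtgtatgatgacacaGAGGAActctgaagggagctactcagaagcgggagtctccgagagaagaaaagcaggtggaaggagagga
IL3RA: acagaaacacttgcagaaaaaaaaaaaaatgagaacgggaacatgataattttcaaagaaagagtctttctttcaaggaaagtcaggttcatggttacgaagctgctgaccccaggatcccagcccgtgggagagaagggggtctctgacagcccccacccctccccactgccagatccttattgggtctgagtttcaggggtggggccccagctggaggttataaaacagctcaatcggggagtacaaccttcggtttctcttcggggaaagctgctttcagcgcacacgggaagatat
CSF3R start 1: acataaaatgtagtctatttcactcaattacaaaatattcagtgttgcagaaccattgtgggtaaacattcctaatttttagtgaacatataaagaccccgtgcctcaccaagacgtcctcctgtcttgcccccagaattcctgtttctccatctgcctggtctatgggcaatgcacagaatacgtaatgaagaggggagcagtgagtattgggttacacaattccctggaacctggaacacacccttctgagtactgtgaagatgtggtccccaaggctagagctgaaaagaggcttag
CSF3R start 2: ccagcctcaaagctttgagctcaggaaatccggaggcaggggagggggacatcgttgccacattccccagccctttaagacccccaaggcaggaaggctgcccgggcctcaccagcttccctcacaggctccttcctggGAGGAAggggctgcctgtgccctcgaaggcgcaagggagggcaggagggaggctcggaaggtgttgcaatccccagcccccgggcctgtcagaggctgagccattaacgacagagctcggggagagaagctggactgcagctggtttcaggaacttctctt
The CSF2RA window held the word at positions -63 and -20 from the start site, and the second CSF3R window held it at -111. The IL3RA window and the first CSF3R window held none. Among all 35116 windows of this length, 27.9% held it on either strand, and 5 of 10 receptor windows held it, with X and Y copies counted once. SPI1 itself was abundant, at 214 to 259 TPM (a level that RSEM scales by transcript length and library size). A match of letters is a description and no binding was measured.

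The duplication removed CSF2RA and IL3RA from the fragment counts. The counts of both genes were 0 in all 6 libraries, for the X copy and for the Y copy alike. Counting kept fragments that matched a single place, and 7.27 to 7.56% of fragments per library matched several and were left out. RSEM, which divides such fragments between copies, assigned 1052 to 2138 fragments per library to CSF2RA and 2018 to 3803 to IL3RA when both copies were added. It gave the X and Y entries of each gene the same TPM in all 6 libraries. The zeros of these 2 receptors are thus no measure of their expression, and their levels and tests below use RSEM expected counts with both copies added. The posterior standard deviation of the X copy of CSF2RA was 178 to 379 fragments beside expected counts of 526 to 1069. For IL3RA it was 252 to 798 beside 1009 to 1902, and the source of these deviations was not tested.

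Other genes of the region behaved alike. Of 15 listed PAR1 genes 13 had at least 10 expected fragments in every library, and 11 of these 13 had 0 counts for the X copy throughout. The exceptions were ZBED1, a transcription factor with at most 1 count in a library and 2 over all libraries on the Y copy, and CD99, a surface glycoprotein with at most 3. SLC25A6, the ADP/ATP carrier of mitochondria, was listed at 0 counts but had 550 to 628 TPM over both copies, and P2RY8, a receptor of lymphoid and myeloid cells, had 102 to 113 TPM with 0 counts on the X copy and 7 over all libraries on the Y copy. PLCXD1, GTPBP6, PPP2R3B, AKAP17A, ASMTL, DHRSX and CRLF2 were likewise at 0 counts with RSEM estimates above 0, while SHOX and ASMT were at or near 0 in both. CSF2RA was the only 1 of the 13 with P under 0.05 between treatments by RSEM, beside 3.7% of all 18828 genes tested.

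**Figure D1:**
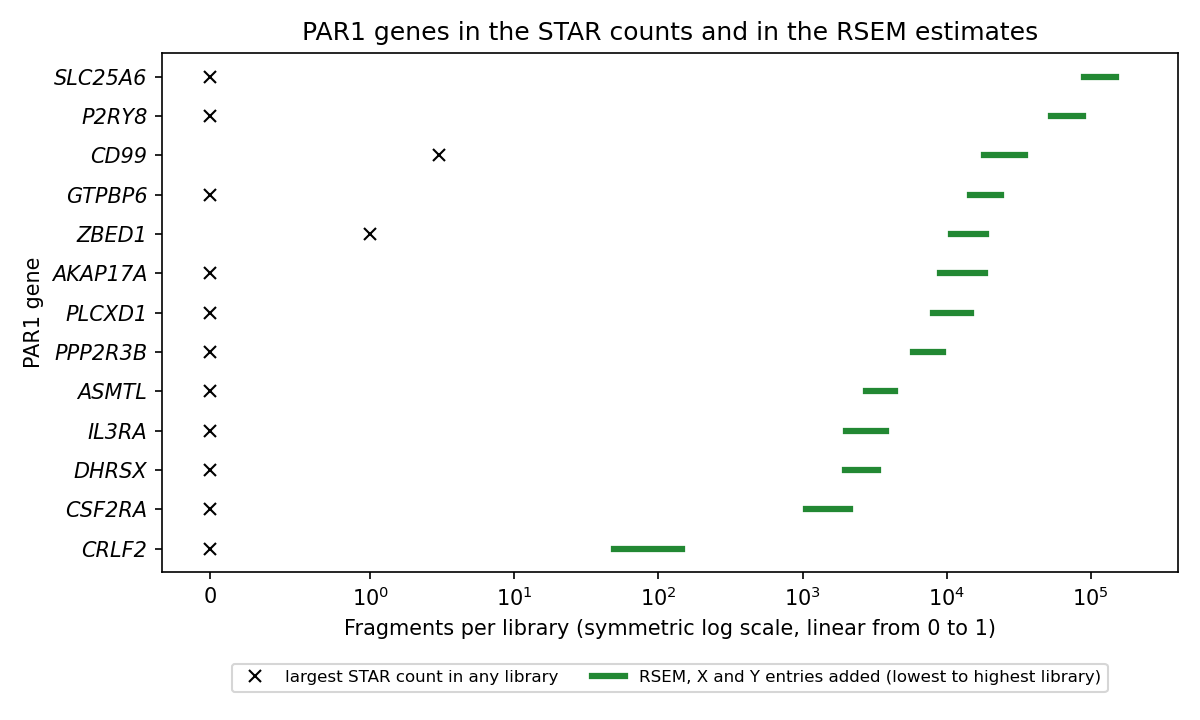
Fragments per library for 13 PAR1 genes, on a symmetric log axis. Crosses give the largest STAR count of the X copy in any of 6 libraries and green bars the range of RSEM estimates with the X and Y entries added. CSF2RA sits at 0 counts and 1052 to 2138 RSEM fragments.

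The other 7 receptors were counted without this problem. Their counts were 103 to 114% of the RSEM estimates in every library. The processed copies IL6STP1 and CSF2RBP1 took 1 count each over all libraries. The genes that overlap a receptor in the annotation lie on the opposite strand, apart from the microRNA MIR3690 within CSF2RA, which had 0 counts. The libraries are strand specific, and IL6R-AS1 opposite IL6R had 78 to 122 counts beside at least 91645 for IL6R.

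The receptors covered a wide range of levels in DMSO cells. IL6R on chromosome 1 (154405193 to 154469450) was by far the highest, at 157 ± 1.81 TPM (SD, n = 3), above 98.6% of all listed genes. CSF3R followed at 42.7 ± 1.77 TPM, and IL6R exceeded it 3.68-fold. CSF1R was at 30.8 ± 5.45 TPM and FLT3 at 16.7 ± 2.49 TPM. The ranges of these 4 receptors over all 6 libraries did not overlap.

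The β-common chains were lower, with CSF2RA at the lowest level of the 3. IL3RA was at 13.7 ± 0.839 TPM with both copies added, and its DMSO range overlapped that of FLT3. CSF2RB was at 12.2 ± 0.594 TPM, below IL3RA in DMSO cells but overlapping it over all 6 libraries. CSF2RA was at 6.15 ± 0.484 TPM and overlapped IL6ST, which was at 4.73 ± 1.29 TPM. KIT was the lowest, at 0.26 ± 0.125 TPM, and had only 124 to 285 counts per library. With the X copy alone CSF2RA is at 3.07 TPM and IL3RA at 6.84 TPM, which places CSF2RA below IL6ST and IL3RA below CSF2RB.

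Partner chains were unequal in their transcript levels. IL6R exceeded IL6ST 26.6- to 45.7-fold within single libraries. CSF2RB exceeded CSF2RA 1.66- to 2.19-fold, whereas the ratio of CSF2RB to IL3RA was 0.813 to 0.99. CSF1R exceeded FLT3 1.64- to 2.06-fold. These are ratios of TPM and do not give numbers of receptors on the cell surface.

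**Figure D2:**
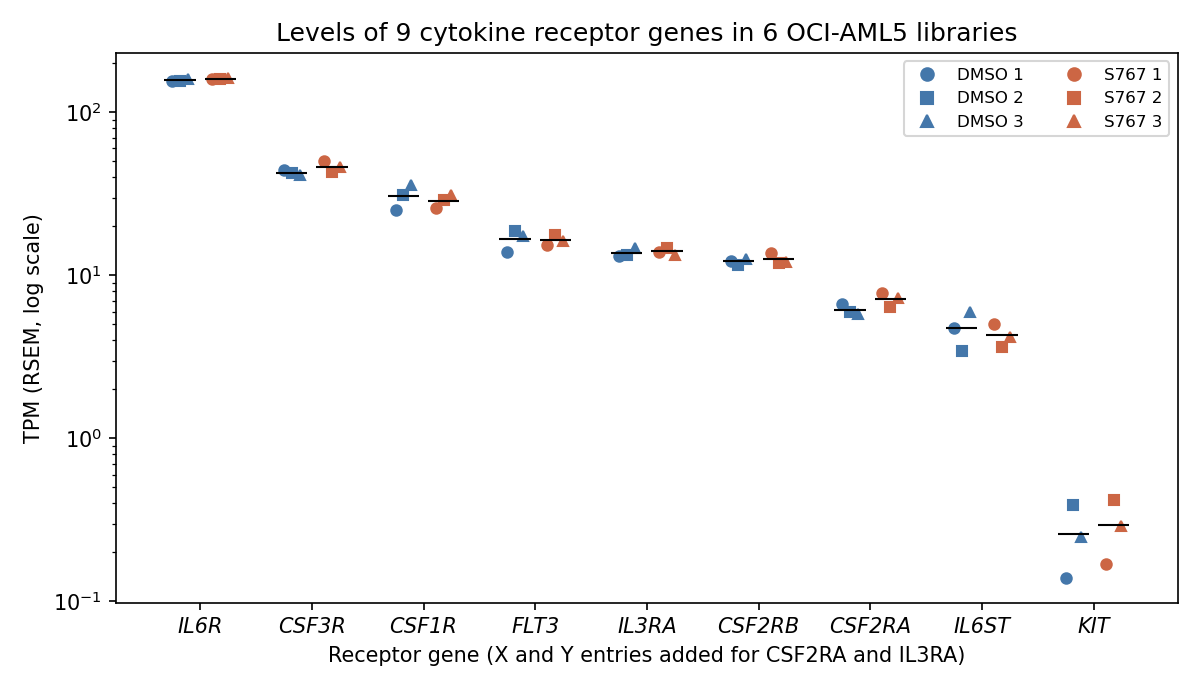
TPM of 9 receptor genes in 6 libraries on a log axis, ordered by the mean in DMSO cells, with the X and Y entries added for CSF2RA and IL3RA. Points are libraries, with a shape for each replicate number, and lines are group means. IL6R lies at 156 to 162 TPM and KIT at 0.14 to 0.42 TPM.

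The cells had the transcripts of a myeloid line. Of 10 myeloid markers, 8 were at 1 TPM or more in all 6 libraries, and the list summed to 774 to 1178 TPM in DMSO and 771 to 1182 TPM in S767. CD33, a myeloid surface antigen, was at 88.6 to 106 TPM, and ELANE, neutrophil elastase, at 0.04 to 0.25 TPM. CD34, which marks stem and progenitor cells, was at 0.61 to 2.65 TPM. Without the block 0 of the 10 myeloid markers had P under 0.05, where 3.53% of all genes did. In the blocked fit, the one in which CSF3R passed, CD33 rose by 0.11 on the log2 scale (adjusted p 0.0241 by edgeR). CD38, an ectoenzyme of blood cells, rose there by 0.17 (adjusted p 0.00752 by edgeR), where 2.16% of all genes rose. Both were higher in 3 of 3 pairs, as were 19.9% of all genes by counts. MPO, myeloperoxidase, and CEBPA, a myeloid transcription factor, had log2 fold changes of -0.07 and -0.07 in the blocked fit (adjusted p 0.234 and 0.121 by edgeR). CD34 had -0.15 there (adjusted p 0.319 by edgeR). MPO, CEBPA and CD34 were each lower in 3 of 3 pairs, as were 17.8% of all genes by counts. The changes of these markers were picked out after their values were seen, and their part in the receptor values was not tested. Of 6 lymphoid markers, 1 reached 1 TPM in all libraries, CD79A at 6.63 to 11.2 TPM, and none of the 4 erythroid, 3 megakaryocyte or 5 stromal and epithelial markers did so. Depth was 149994700 to 258029564 counts on genes per library, 79.3 to 80.3% of all fragments. In bulk RNA, fewer cells that express a gene and less RNA per cell cannot be told apart.

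Between S767 and DMSO the fitted log2 fold changes of the receptors were 0.21 or less in size. By the limits the study used, P under 0.05 and a log2 fold change beyond 0.4, 0 of the 9 receptors differed, where 1.23% of the 20725 tested genes did by counts and 1.1% of 18828 by RSEM. With edgeR's quasi-likelihood test on counts, 1 of the 7 countable receptors, CSF3R, had P under 0.05, where 3.53% of all tested genes did. None of the 7 passed an adjusted p of 0.05, which 0.00483% of all genes passed, and the count was also 0 by limma-voom and DESeq2. By RSEM counts with copies added CSF2RA was the 1 of the 2 PAR1 receptors with P under 0.05, where 3.7% of 18828 tested genes were, and 0.00531% of these passed an adjusted p of 0.05. With the block neither of the 2 passed it, which 2.09% of genes did. The median log2 fold change was 0.06 over the 7 receptors and 0.00 over all genes tested.

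The replicate numbers divided the libraries more than the treatment did, and libraries with equal numbers deviated together. Entering the number as a block narrowed the intervals. With the block 3 of the 7 countable receptors had P under 0.05, beside 16.8% of all genes. CSF3R alone of the 7 passed an adjusted p of 0.05, beside 3.23% of all genes. This share was 9.86% without pair 1, 0.113% without pair 2 and 3.06% without pair 3, and it was 11% by RSEM without pair 1. In 4 of the 9 receptors, CSF2RA, KIT, CSF3R and IL6R, the S767 library was higher in 3 of 3 pairs, as were 19.9% of all genes by counts and 20.5% by RSEM. IL6ST was lower in 3 of 3 pairs, as were 17.8% of all genes by counts.

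**Figure D3:**
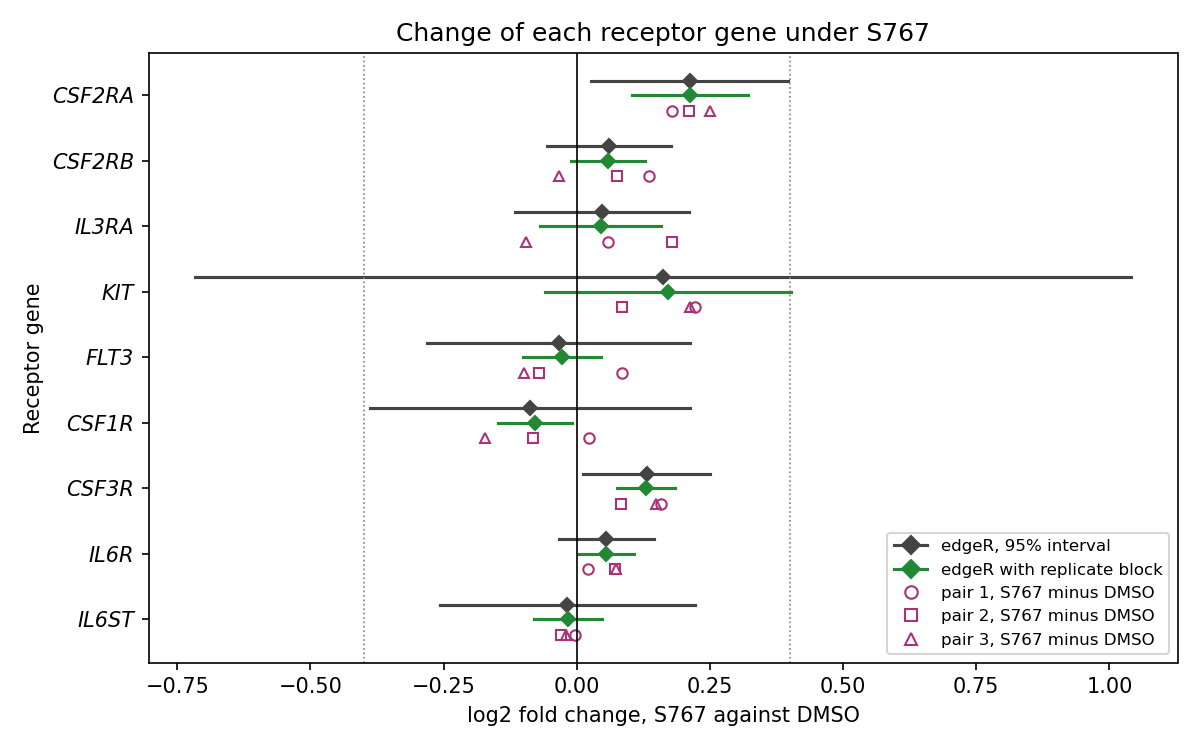
Log2 fold change of each receptor between S767 and DMSO. Grey and green diamonds with bars are edgeR estimates with 95% intervals without and with the replicate block, open symbols are the 3 pairs, and dotted lines mark 0.4 in size. CSF2RA and CSF3R lie above 0 in both fits, at 0.21 and 0.13.

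Among the β-common receptors, the GM-CSF binding chain had separate groups but did not pass an adjusted p of 0.05 with or without the block. CSF2RA had 7.56, 6.74 and 6.73 CPM (counts scaled to library size, here from RSEM counts) in DMSO libraries 1 to 3 and 8.55, 7.8 and 8.01 in S767 libraries 1 to 3. Every S767 library lay above every DMSO library, which held for 9.55% of all genes in either direction. The log2 fold change of CSF2RA was 0.21 (SE 0.08), with a 95% interval of 0.03 to 0.40. P was 0.0296 and the adjusted p 0.999 by edgeR's quasi-likelihood test. P was above 0.05 by edgeR's quasi-likelihood test without DMSO library 2 (0.0884) or 3 (0.0943), without S767 library 1 (0.0958) or 3 (0.0589), and for the X copy alone (0.0531). With the replicate block the adjusted p was 0.0591, and it was 0.0205 without pair 1, 0.343 without pair 2 and 0.177 without pair 3. An exact two-sided permutation test gave p = 0.1, the smallest value 3 libraries against 3 allow. On the TPM scale the groups overlapped, at 5.8 to 6.7 in DMSO and 6.44 to 7.78 in S767 with copies added.

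The chains that CSF2RA and its relatives use did not differ beyond their spread. CSF2RB, on chromosome 22 (36913628 to 36940449), had 44.7, 42.8 and 45.8 CPM in DMSO and 49.1, 45.1 and 44.7 CPM in S767. The groups overlapped, and S767 was higher in 2 of 3 pairs. For CSF2RB the log2 fold change was 0.06 with a 95% interval of -0.06 to 0.18, and it was 0.016 without S767 library 1. IL3RA, which encodes the CD123 antigen of leukemic stem cells, had 12.6, 12.9 and 14 CPM from RSEM counts in DMSO and 13.1, 14.6 and 13.1 CPM in S767. DMSO library 3 lay among the S767 values, and the log2 fold change of 0.05 had an interval of -0.12 to 0.21. Without S767 library 2 it was -0.0072.

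The class III kinases varied mainly with the replicate number. KIT, on chromosome 4 (54657918 to 54740715), had 124, 223 and 258 counts in DMSO and 158, 285 and 228 in S767. Scaled to library size these were 0.568, 1.5 and 0.998 CPM in DMSO and 0.663, 1.59 and 1.16 CPM in S767. Libraries numbered 2 were the highest and libraries numbered 1 the lowest in both groups. Without the block the log2 fold change of KIT was 0.16 with an interval of -0.72 to 1.04, which includes changes beyond 0.4 in both directions. With the block it was 0.17 with an interval of -0.06 to 0.40. KIT was higher in S767 in 3 of 3 pairs, as were 19.9% of all genes by counts. In the fit without the block the log2 fold change was -0.13 without DMSO library 1 and -0.16 without S767 library 2. Counting error alone at 124 counts is 8.98%, which does not include differences between libraries.

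FLT3 lies on chromosome 13 (28003274 to 28100592). It had 40.5, 54.5 and 49.7 CPM in DMSO and 43, 51.9 and 46.4 CPM in S767. Again the libraries numbered 2 were highest and those numbered 1 lowest in each group. Its log2 fold change was -0.03 with an interval of -0.28 to 0.21, and it was 0.062 without DMSO library 2 and 0.029 without S767 library 1. With the block and without pair 1 it was -0.086, with an adjusted p of 0.0499 by edgeR. Over the 6 libraries the log2 CPM of FLT3 and KIT had a Pearson r of 0.94, a description of libraries that share replicate numbers.

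CSF1R, on chromosome 5 (150053291 to 150113372), had 71.6, 91.7 and 104 CPM in DMSO and 72.8, 86.5 and 92.2 CPM in S767. Here the libraries numbered 3 were highest, and S767 was lower in pairs 2 and 3 but higher in pair 1. Its fold change was -0.09 on the log2 scale with an interval of -0.39 to 0.21, and it was 0.038 without DMSO library 3 and 0.0058 without S767 library 1. With the block P was 0.0313 and the adjusted p 0.238 by edgeR, and with the block and without pair 1 the log2 fold change was -0.13 with an adjusted p of 0.000271.

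Among the remaining cytokine receptors CSF3R passed an adjusted p of 0.05 with the block and not without it. CSF3R, on chromosome 1 (36466043 to 36483278), had 76.1, 71.9 and 70.4 CPM in DMSO and 84.9, 76.2 and 78 CPM in S767. The S767 libraries all lay above the DMSO libraries, and 9.21% of all genes had such separate groups in either direction. CSF3R differed by 0.13 (SE 0.05) on the log2 scale, an increase of 9.51%, with an interval of 0.01 to 0.25. Without S767 library 1 the difference was 0.084, with P at 0.13 by edgeR's quasi-likelihood test. P was 0.0348 and the adjusted p 1 by edgeR's quasi-likelihood test. With the replicate block the adjusted p was 0.0163 and CSF3R rose by 0.13 (SE 0.03) on the log2 scale, although with the block and without pair 2 the adjusted p was 0.232. On the TPM scale the groups overlapped, at 41 to 44.6 in DMSO and 43.2 to 50.4 in S767.

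IL6R, the most abundant receptor, varied over a narrow range. It had 610, 617 and 627 CPM in DMSO and 619, 648 and 660 CPM in S767. The S767 value was higher in each pair, yet on CPM S767 library 1 lay below DMSO library 3. On the TPM scale the groups of IL6R did not overlap, at 156 to 159 in DMSO and 160 to 162 in S767, as for 8.2% of all genes in either direction. For IL6R the log2 fold change was 0.06 with an interval of -0.03 to 0.15. With the block the interval was 0.003 to 0.107 and P was 0.0389 by edgeR, where 16.8% of all genes had P under 0.05. The adjusted p of IL6R with the block was 0.265 by edgeR, and 0.0382 without pair 1. IL6ST, on chromosome 5 (55935095 to 55994993), had 25.8, 22.3 and 28.2 CPM in DMSO and 25.7, 21.9 and 27.8 CPM in S767. Paired libraries of IL6ST differed by at most 0.03 on the log2 scale, while libraries of 1 group differed by more, and the log2 fold change of -0.02 had an interval of -0.26 to 0.22. It was 0.062 without DMSO library 3 and 0.071 without S767 library 2.

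The share of variation that went with the replicate number differed widely among the receptors. For IL6ST 99.5% of the sum of squares of log2 CPM lay between replicate numbers, for KIT 97.2%, for FLT3 91.9% and for CSF1R 91.6%. The median over all tested genes was 62.8%, and 10.2% lay between treatments. Replicate numbers form more groups than treatments do, so on average they take a larger share even where neither acts. For CSF2RA 70.9% and for CSF3R 55.5% lay between treatments. IL6R had 44.5% between replicate numbers and 46.2% between treatments, and CSF2RB had 40.4% and 24.9%. IL3RA had 31.6% and 10.3%, with 58.1% in neither. CSF2RA and CSF3R had a Pearson r of 0.96 over the 6 libraries, a description of libraries that share treatment and replicate number.

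**Figure D4:**
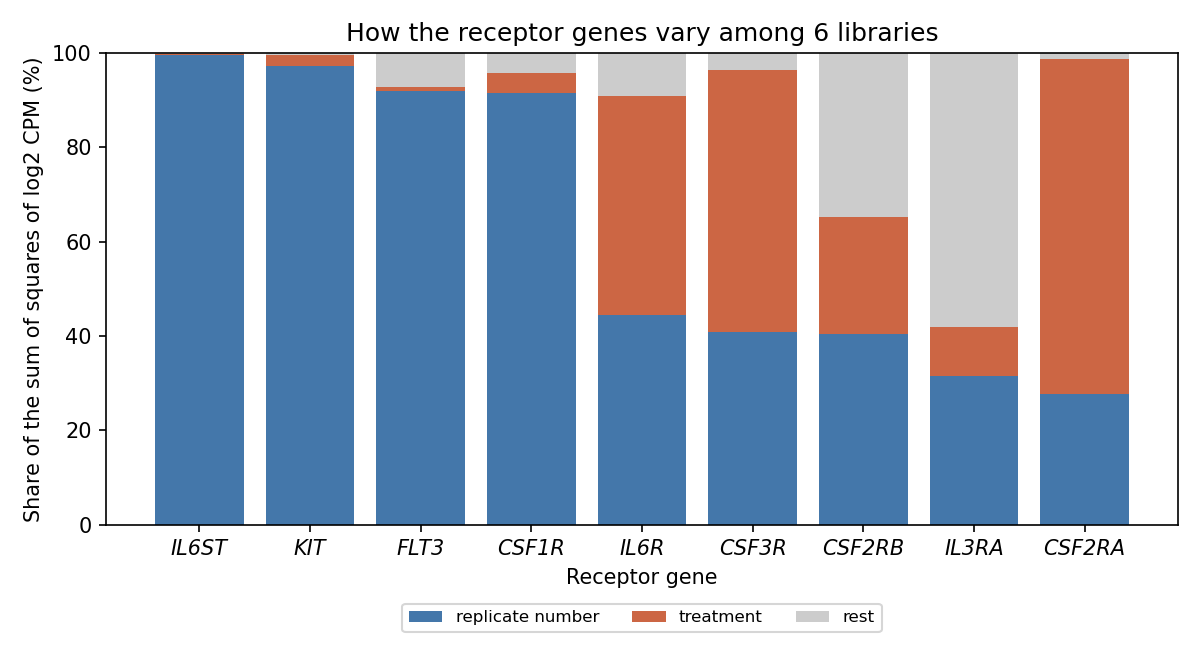
Share of the sum of squares of log2 CPM over 6 libraries that lies between replicate numbers, between treatments and in the rest, for each receptor. IL6ST stands at 99.5% between replicate numbers and CSF2RA at 70.9% between treatments.

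The genes whose levels followed IL6R most closely were taken over 6190 genes with a mean log2 CPM above 5. They were GRN, the growth factor precursor progranulin, GSTO1, a glutathione transferase, and ACSL5, a fatty acid CoA ligase. Their Pearson r with IL6R over the 6 libraries was 0.985, 0.984 and 0.983. These were the highest of 6190 values, a description of libraries that share treatment and replicate number. Without the block GRN, GSTO1 and ACSL5 all had P above 0.05 between treatments, the lowest being 0.0518 for ACSL5 by edgeR. Of all genes 3.53% had P under 0.05 in that fit.

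Several ligands of these receptors were barely detected in the cells. Of 16 listed ligands 9 had enough counts to be tested, and CSF2 (GM-CSF), IL3, CSF3 (G-CSF) and IL6 had at most 3 counts in any library. The most abundant ligands by the mean over 6 libraries were FLT3LG at 3.76 to 4.57 TPM, KITLG at 2.66 to 3.64 TPM and OSM, a cytokine of the IL-6 family, at 1.54 to 3.34 TPM. KITLG encodes stem cell factor, the ligand of KIT. It had 11.1, 11.7 and 11.5 CPM in DMSO and 13.9, 15.1 and 14 CPM in S767. The groups of KITLG did not overlap, as for 9.21% of all genes in either direction.

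KITLG was the only one of the 9 tested ligands with P under 0.05, where 3.53% of all genes had it. Its log2 fold change was 0.33 (SE 0.06). P was 0.000673 and the adjusted p 1 by edgeR's quasi-likelihood test. With the replicate block KITLG rose with an adjusted p of 0.00128 (0.0896 without pair 2), and by DESeq2 without it with an adjusted p of 0.00135. With the block 2.16% of all genes rose at an adjusted p of 0.05, and by DESeq2 0.13% passed it in either direction. The change stayed below the 0.4 limit that the study used for size. The median of the ligands was 0.09 on the log2 scale, and -0.10 to 0.098 with single libraries left out. With no limit on low counts it was -0.13, and 2 of 13 ligands had P under 0.05, with no share of all genes given for that fit. The ligands that this fit added had at most 8 counts in any library. FLT3LG had a log2 fold change of 0.36 (SE 0.25) from only 17 to 34 counts, which were 5.96% of its RSEM estimate.

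Of 20 proximal signaling genes all were tested and 2 had P under 0.05, both higher in S767, where 3.53% of all genes had P under 0.05. TYK2, a JAK family kinase, had 166, 157 and 158 CPM in DMSO and 183, 173 and 172 CPM in S767. Every S767 library of TYK2 lay above every DMSO library, and 9.21% of all genes had separate groups in either direction. Its log2 fold change was 0.13 (SE 0.04), with an adjusted p of 1 by edgeR. With the block TYK2 rose at an adjusted p of 0.00853, and so did FES, a myeloid tyrosine kinase, at 0.0208, where 2.16% of all genes rose. Without pair 2 the adjusted p was 0.316 for TYK2 and 0.341 for FES, and without pair 3 it was 0.0999 for FES. On log2(TPM + 1) the difference of TYK2 was 0.09 (SE 0.0776) and limma did not call it. GRB2, the adaptor that links receptors to RAS, was at 157 to 170 TPM and SYK, a kinase of immune receptors, at 94.6 to 104 TPM (log2 fold change 0.02 and -0.0040).

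**Figure D5:**
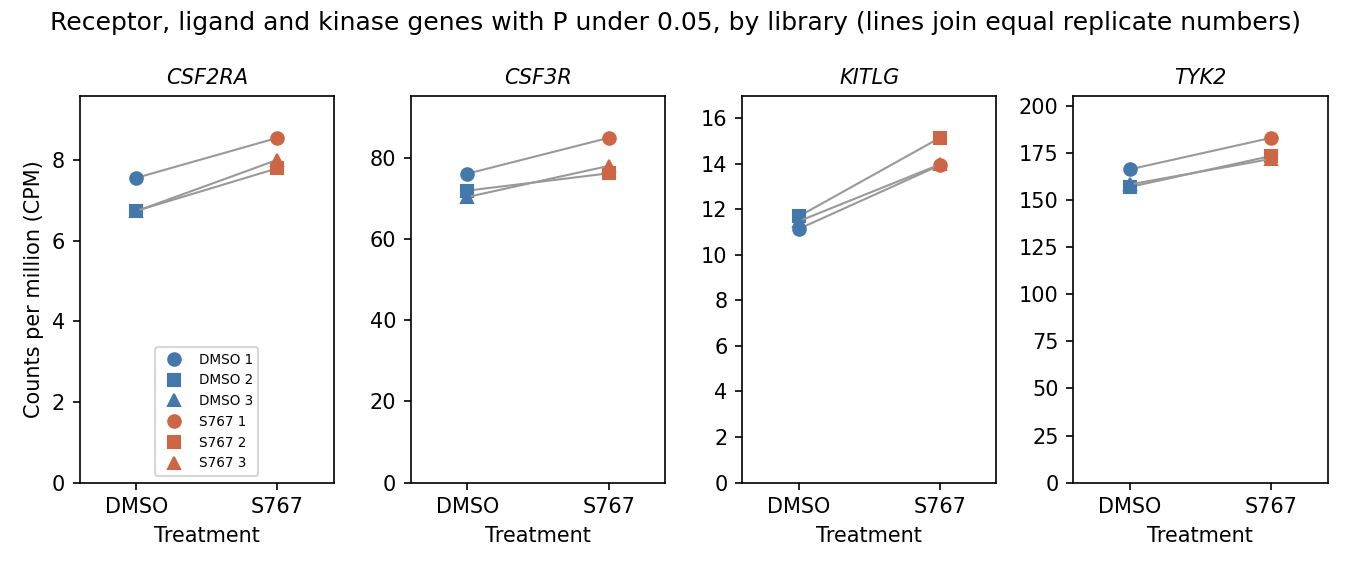
CPM of CSF2RA (from RSEM counts with copies added), CSF3R, KITLG and TYK2 in 3 DMSO and 3 S767 libraries, each axis starting at 0. Points are libraries and lines join libraries with the same number. Every line goes up, and the fitted log2 fold changes of the genes are 0.13 to 0.33.

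Of 27 other cytokine receptors 20 were tested and 0 had P under 0.05, beside 3.53% of all genes, with a median log2 fold change of 0.02. By RSEM counts 2 of 22 had P under 0.05, beside 3.7% of all genes, and 4 of 20 did so by counts without DMSO library 1, beside 4.29%. The most abundant were IFNGR1, a chain of the interferon-γ receptor, at 59.3 to 71.4 TPM, IL2RG, the common γ chain, at 48.9 to 73.5 TPM, and IL4R at 21 to 26.6 TPM. With the block 1 of the 20 rose, IL13RA1, a chain of the IL-4 and IL-13 receptors, by 0.14 at an adjusted p of 0.0439 by edgeR, where 2.16% of all genes rose. It did not pass without pair 2 (0.486) or pair 3 (0.0993), nor with the block in limma-voom (0.0572) or on RSEM counts (0.0612). FES and IL13RA1 were named after their values were seen.

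Of 16 negative regulators all were tested and 0 had P under 0.05, with a median of -0.01. PTPN6, the phosphatase SHP-1, was at 205 to 233 TPM, INPP5D, the lipid phosphatase SHIP1, at 130 to 148 TPM, and PTPRC (CD45) at 65.7 to 83.9 TPM. Of 5 genes of receptor shedding 4 were tested, and 0 had P under 0.05. ADAM10, a sheddase, was at 91.1 to 105 TPM, ADAM17, which cleaves IL6R and CSF1R from the surface, at 11.8 to 13.3 TPM, and its partner RHBDF2 at 13.7 to 15.7 TPM. Over the 5 lists 3 of 69 tested genes had P under 0.05, beside 3.53% of all genes, and with the block 5 rose and 0 fell at an adjusted p of 0.05, beside 2.16% and 1.08% of all genes.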

How the data were processed

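Poly(A) RNA of OCI-AML5 cells was sequenced in 3 DMSO and 3 S767 libraries with a stranded kit. Fragments were aligned with STAR 2.7.1a to GRCh38 and quantified with RSEM 1.2.28, per the submitters' processing notes. The authors deposited, per library, whole-number counts for each gene without normalization, of which the reverse-strand counts were used, since 6.44 to 6.58% lay on the forward strand. They also deposited RSEM expected counts, which need not be whole, TPM, effective lengths and posterior standard deviations. Lines that name no gene held 20.3% of fragments and were left out. Symbols were found for 60340 of 60609 genes.

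Groups came from the labels. Counts were normalized with TMM, filtered with filterByExpr (minimum count 10) and tested with the quasi-likelihood test of edgeR 4.0.16 (R 4.3.3), with Benjamini-Hochberg adjustment over 20725 genes. Standard errors come from each log2 fold change and the root of its F statistic, and 95% intervals use the degrees of freedom of that test. CSF2RA and IL3RA, with 0 counts, were tested on rounded RSEM expected counts with copies added (18828 genes), which departs from the planned count test for them. CPM use TMM factors, and log2 CPM a prior count of 2. The test was checked on simulated counts. No 2 libraries were repeats of each other (chi-square per gene at least 15.2).

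Libraries were checked for pairing by replicate number. Over 6191 genes, their log2 CPM minus the mean of their group correlated at 0.78, 0.87 and 0.75 for equal numbers, and the correlations were negative for all others. Deviations from a group mean cancel out within the group, so the negative correlations follow in part from the positive ones. The numbers thus pair the libraries, on the evidence of these values and not of the labels. The fit without the block is the main one, and values with the block are given where they change a call.

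The genes named are the 9 receptors, genes of the 5 lists with P under 0.05, the 3 most abundant of each list, the PAR1 genes and copies, and the 3 genes most correlated with IL6R. A gene of the lists that the rule names is counted but not reported here. The members and lists were chosen with earlier results of these data known. Alternatives were limma-voom (limma 3.58.1, the test the study used), DESeq2 1.42.0, other normalizations, limits on low counts, RSEM counts, log2(TPM + 1) and log2(TPM + 0.1), unstranded counts, the block, and each library left out. Counting error at the lowest count was 8.98% for KIT and at most 1.74% for the other counted receptors. It is larger for list genes with few counts, such as FLT3LG with 17 to 34. The spread between libraries also limits the comparisons.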

Additional observations from a re-analysis of the deposited data

How the results depend on the processing

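Of 785 values recomputed under alternatives for 43 results, 667 kept their direction and their side of an adjusted p of 0.05, or, for counts of genes, stayed within 1.5 times the main count and, for levels and list medians, within 1 SD. The block with each pair left out, and the alternatives on summed RSEM counts for CSF2RA and IL3RA, were added after seeing the data. With single libraries left out, log2 fold changes kept their sign at 0.17 to 0.27 for CSF2RA, 0.016 to 0.083 for CSF2RB, 0.084 to 0.16 for CSF3R and 0.035 to 0.082 for IL6R, and ranged from -0.0072 to 0.093 for IL3RA, -0.16 to 0.53 for KIT, -0.14 to 0.062 for FLT3, -0.22 to 0.038 for CSF1R and -0.10 to 0.071 for IL6ST, so the signs of these last 5 rest on single libraries in the fit without the block. Leaving out 1 library of a pair also unbalances the replicate numbers, and the blocked fit with any pair left out kept the sign of KIT (0.14 to 0.22), CSF1R (-0.13 to -0.032) and IL6ST (-0.025 to -0.014). IL3RA turned negative without S767 library 2, KIT without DMSO library 1 or S767 library 2, FLT3 positive without DMSO library 2 or S767 library 1, CSF1R without DMSO library 3 or S767 library 1, and IL6ST without DMSO library 3 or S767 library 2. The block with 1 pair left out gave log2 fold changes of -0.021 for IL3RA (without pair 2) and 0.0065 for FLT3 (without pair 3), and without pair 1 the block fit passed an adjusted p of 0.05 for CSF2RA (0.23, adjusted p 0.0205), FLT3 (-0.086, adjusted p 0.0499), CSF1R (-0.13, adjusted p 0.000271), CSF3R (0.12, adjusted p 0.00189) and IL6R (0.072, adjusted p 0.0382), and without pair 3 for CSF3R (0.12, adjusted p 0.0291). Among the 7 counted receptors the blocked fit without 1 pair thus passed 0 (without pair 2, beside 0.113% of all genes) to 4 (without pair 1, beside 9.86%). CSF3R passed with the block under limma-voom (0.13, adjusted p 0.019) and with RSEM counts (0.13, adjusted p 0.0319) as with edgeR (0.13, adjusted p 0.0163), and the cause was not tested. Of the 7 countable receptors the number with P under 0.05 was 1. It was 2 with summed RSEM counts, where 9 were tested, 0 with library size alone, log2(TPM + 1) or log2(TPM + 0.1), 3 with the block, 3 with the block in limma-voom, 4 with the block on RSEM counts, where 9 were tested and CSF2RA is the added one, and 0 to 1 with single libraries left out, being 0 without DMSO library 2, DMSO library 3 or S767 library 1. CSF2RA likewise lost P under 0.05 without DMSO library 2 or 3 or S767 library 1 or 3. Past an adjusted p of 0.05 there were 0, and 1 with each of these 3 block fits. Over the 69 tested genes of the 5 lists, 3 had P under 0.05, beside 3.53% of all genes. The number was 5 of 71 by RSEM counts or summed RSEM counts, beside 3.7% of all genes by the latter. It was 5 of 78 with no limit on low counts. With the block it was 11, beside 16.8% of all genes, 12 in limma-voom and 14 of 71 on RSEM counts. With single libraries left out it was 3 to 9, the 9 without DMSO library 1, beside 4.29% of all genes. For the other settings no share of all genes with P under 0.05 is given, for lists or receptors, so their counts are not read as an excess. Past an adjusted p of 0.05 the list genes numbered 0, 1 by DESeq2, 5 with the block, and 4 with the block in limma-voom or on RSEM counts. From counts per kilobase of effective length the DMSO levels were 14 for CSF2RB, 19.3 for FLT3, 53.1 for CSF3R, 179 for IL6R and 0 for CSF2RA and IL3RA, and the TPM of CSF2RA and IL3RA were 6.15 and 13.7 with copies added.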

Other observations

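Some genes of the lists were thinly counted for their RSEM estimates, outside PAR1 as well. The counts of IL10RB, a chain of the IL-10 receptor, were 4.15% of its RSEM expected counts, with 176 to 334 counts per library beside 21.5 to 25.7 TPM. For IL2RG they were 16.5%, and for IFNAR2, a chain of the type I interferon receptor, 44.7%. Their count-based tests rest on part of their fragments. LYZ, the lysozyme of myeloid cells, was at 244 to 597 TPM over the libraries with a log2 fold change of 0.01 (SE 0.40) between treatments.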
